A study of Mus musculus with 8 samples.

Results

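De novo lipogenesis is described here through 10 genes: the enzymes and carrier that turn citrate or acetate into fatty acids (Slc25a1, Acly, Acss2, Acaca, Acacb, Fasn), the NADPH-making malic enzyme Me1, and 3 regulators (Srebf1, Mlxipl and Thrsp). The genes were taken by symbol, through the RefSeq accession of each array probe, and all 10 were found among 17552 named genes tested and 26464 features tested in all, where a feature is a named gene or an unnamed transcript. They were read by 18 probes, and 6 of the 10 genes had more than 1. The cells were mouse 3T3-L1 preadipocytes, a fibroblast line that can be turned into fat cells with hormones. The sh8 line was stably transfected with shRNA-8, a short hairpin RNA directed at the long noncoding RNA slincRAD. The WT line was the wildtype parent without a hairpin. No line with a control hairpin was among the samples, the labels do not say whether sh8 is 1 clone or a pool, and slincRAD itself was not analysed here. Both lines were sampled on day -2, on day 0 (confluence), and on days +2 and +4 of a hormone mix. The mix held 0.5 mM isobutylmethylxanthine, 1 µM dexamethasone and 167 nM insulin. Serum was listed as 10% for every array. There was 1 array for each line and day, hence 4 sh8 arrays and 4 WT arrays, and nothing in the labels says which were separate cultures. A p-value for the lines therefore measures how far their difference varied from day to day, and that spread may be partly technical. A p-value between days rests on the same spread, with the sh8 and WT arrays of a day standing in for replicates.

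Cells make fatty acids from citrate that leaves the mitochondrion. The citrate carrier Slc25a1 exports it, ATP citrate lyase (Acly) splits off acetyl-CoA, and Acss2 makes acetyl-CoA from acetate instead. Acetyl-CoA carboxylases make malonyl-CoA: Acaca supplies fatty acid synthase (Fasn), while Acacb sits at the mitochondrial membrane, where malonyl-CoA restrains fatty acid oxidation. SREBP-1, the product of Srebf1, and ChREBP, the product of Mlxipl, are transcription factors that activate these genes in response to insulin and to glucose, and Thrsp encodes a small protein that promotes lipogenesis in liver and fat. The programme is normally induced as preadipocytes become fat cells.

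RefSeq starts on assembly GRCm38.p6 were matched for all 10 genes, with 14 promoters in all, and the 250 bases before each start were searched on both strands. In the sequences shown, capitals mark matches to the sterol regulatory element TCACNCCAC bound by SREBP, the E-box CACGTG, the CCAAT box and the GC box GGGCGG, or to their reverse complements. Acacb is shown because it was the single gene of the 10 that passed the test between the lines, Fasn and Slc25a1 because their profiles were the closest pair, and both Mlxipl promoters because the 2 Mlxipl probes gave unlike differences. The Acacb promoter lies at chr5:114165268-114165517 on the plus strand, Fasn at chr11:120824548-120824797 and Slc25a1 at chr16:17928220-17928469 on the minus strand, and the Mlxipl promoters at chr5:135089640-135089889 and chr5:135106641-135106890 on the plus strand.
Acacb: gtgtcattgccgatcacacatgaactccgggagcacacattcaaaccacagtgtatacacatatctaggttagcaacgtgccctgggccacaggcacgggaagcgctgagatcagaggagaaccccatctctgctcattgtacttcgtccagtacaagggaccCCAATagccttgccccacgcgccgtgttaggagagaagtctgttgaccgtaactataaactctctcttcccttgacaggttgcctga
Fasn: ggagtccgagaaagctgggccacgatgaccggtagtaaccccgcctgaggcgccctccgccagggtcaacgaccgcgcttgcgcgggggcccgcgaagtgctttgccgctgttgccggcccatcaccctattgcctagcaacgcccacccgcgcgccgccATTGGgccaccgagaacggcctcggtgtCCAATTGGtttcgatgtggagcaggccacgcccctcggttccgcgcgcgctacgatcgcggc
Slc25a1: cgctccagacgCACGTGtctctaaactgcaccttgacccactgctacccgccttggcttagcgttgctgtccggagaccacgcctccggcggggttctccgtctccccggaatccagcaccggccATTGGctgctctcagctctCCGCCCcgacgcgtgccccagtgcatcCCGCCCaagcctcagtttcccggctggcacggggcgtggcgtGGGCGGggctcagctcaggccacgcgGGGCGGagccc
Mlxipl promoter 1: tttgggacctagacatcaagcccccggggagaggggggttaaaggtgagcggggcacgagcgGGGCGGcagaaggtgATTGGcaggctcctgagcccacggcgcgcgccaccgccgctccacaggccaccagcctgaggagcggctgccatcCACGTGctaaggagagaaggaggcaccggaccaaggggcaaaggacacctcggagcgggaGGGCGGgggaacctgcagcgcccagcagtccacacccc
Mlxipl promoter 2: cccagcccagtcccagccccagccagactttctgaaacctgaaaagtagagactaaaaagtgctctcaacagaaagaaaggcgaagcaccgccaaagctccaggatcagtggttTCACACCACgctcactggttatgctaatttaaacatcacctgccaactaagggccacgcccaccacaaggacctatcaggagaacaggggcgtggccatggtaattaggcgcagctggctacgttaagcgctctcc

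The sterol regulatory element letters occurred in 1 of the 14 promoters, Mlxipl promoter 2, from 136 to 128 bases before the start, against 1.05% of 32851 promoters in the same table. The E-box occurred in 2, Slc25a1 and Mlxipl promoter 1, against 6.02%. A CCAAT box stood in 9 of the 14 promoters, belonging to 8 genes (33.8% of all promoters), and a GC box in 7, belonging to 6 genes (32.7%). Fasn held 3 CCAAT matches within 90 bases of the start, and 2 of them overlap on opposite strands. A match of letters says nothing about binding, and a missing match says nothing about the factor.

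The 4 arrays of days -2 and 0 shared 1 scan date, and the 4 of days +2 and +4 shared another. Each set is called a slide here because of its scan date, and no slide identifier was read. Any difference between before and after induction therefore cannot be told apart from the slide. Levels are log2 processed intensities relative to the 75th percentile of all probes on that array, so that 0 equals the percentile. It was 760 to 1239 intensity units, and 64.9% to 81.7% of probes were well above background. Fibroblast and preadipocyte markers were all well above background on all 8 arrays (10 of 10, summed level 57058 to 71758% of the percentile in sh8 and 48614 to 63377% in WT), and the fat hormone Adipoq was well above background at days +2 and +4 only. Liver markers (4 to 5 of 9 on the array; 3405 to 4643% in sh8, 2941 to 4894% in WT) and macrophage markers (7 to 9 of 9; 701 to 840% in sh8, 533 to 627% in WT) differed less between the slides, with exceptions such as the macrophage lysozyme Lyz2, which was well above background only on days +2 and +4. The liver sum was mostly Apoa2 (log2 level 4.87 to 5.60), while Alb and Apoa1 were well above background on 0 arrays. The liver marker Ttr was lower on the second slide, at -7.57 and -8.37 in sh8 and -8.36 and -7.14 in WT. On the first it was at -4.17 and -3.43 in sh8 and -4.45 and -4.11 in WT. Lung epithelium markers stepped up: 3 to 5 of 9 were well above background on the first slide, with summed levels of 62.5 and 64.6% in sh8 and 39.6 and 44.3% in WT, and 9 of 9 on the second, with 1106 and 1191% in sh8 and 771 and 1038% in WT. Epithelial and mammary markers went along with them (4 to 5 of 10 on the first slide, 8 to 9 on the second; 142 to 345% in sh8, 109 to 279% in WT). The part of these markers in the results on days +2 and +4 was not tested.

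Between the lines, averaged over the 4 days, Acacb was the gene that differed. It fell 1.74-fold in sh8 cells. The other 9 genes did not pass the limma test at a Benjamini-Hochberg adjusted p of 0.05. Among all 26464 features, 27% passed in either direction and 10.3% passed as lower in sh8, so 1 gene of 10 is no more than the background share. At an unadjusted p of 0.05, 3 of the 10 passed (Acacb, Me1 and Acly), against 43.8% of all features. With either array of day +2 or day +4 left out, 0 features passed limma's adjusted threshold (9443 and 8650 at an unadjusted p of 0.05), with 2 residual degrees of freedom left, so every call between the lines here is lost there. Without either day 0 array 79 passed. The median difference over the 10 genes was -0.01, against 0.13 over all features. With quantile scaling the median of all features moved to 0.02, so differences are also read relative to that median where it matters.

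**Figure D1:**
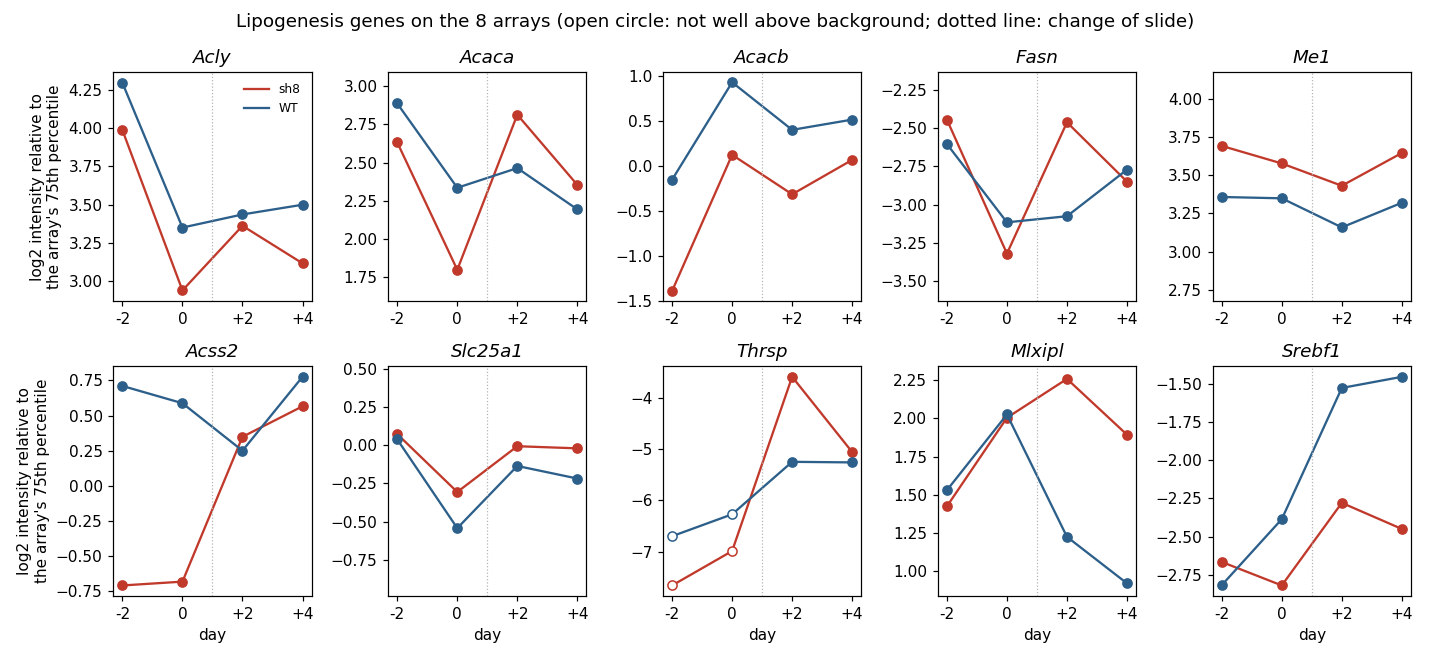
Level of each of the 10 genes (log2 intensity relative to the array's 75th percentile, vertical axis, scale per gene) on days -2, 0, +2 and +4, in sh8 (red) and WT (blue). Each point is 1 array; open circles are not well above background and the dotted line marks the change of slide. Me1 is the single gene whose sh8 points all lie above its WT points, and Acacb is lower in sh8 on each day.

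Among the genes that supply acetyl-CoA, the citrate carrier Slc25a1 had log2 levels of 0.07, -0.31, -0.01 and -0.02 in sh8 on days -2, 0, +2 and +4, against 0.04, -0.54, -0.14 and -0.22 in WT. Its sh8 level was the higher one on every day, by 0.03 to 0.24, yet the 4 values of each line overlap. The limma difference was 0.15 ± 0.09 (SE, adjusted p = 0.258), or 0.02 above the median of all features. ATP citrate lyase Acly stood at 3.99, 2.94, 3.36 and 3.12 in sh8, against 4.30, 3.35, 3.44 and 3.50 in WT. Acly was lower in sh8 on all 4 days, again with overlapping values, and its difference of -0.29 ± 0.10 had an adjusted p of 0.0908. Being lower in sh8 on all 4 days was true of 20.4% of all features, and being higher on all 4 of 32.3%; in the 10 genes there were 2 of each kind, Acly and Acacb lower, Me1 and Slc25a1 higher.

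Acss2, which uses acetate, split by period. Its levels were -0.71, -0.68, 0.35 and 0.57 in sh8 cells, against 0.71, 0.59, 0.25 and 0.78 in WT cells. Before induction the sh8 arrays were far below WT, 2.68-fold on day -2 and 2.42-fold on day 0, and on days +2 and +4 the lines were within 0.21 of each other. Over the 4 days the difference was -0.70 ± 0.31 with a 95% interval from -1.50 to 0.09 (adjusted p = 0.146).

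Both carboxylases make malonyl-CoA, and their differences between the lines were not alike. Acaca had levels of 2.63, 1.80, 2.81 and 2.35 in sh8, against 2.89, 2.34, 2.46 and 2.19 in WT. It was lower in sh8 on days -2 and 0 and higher on days +2 and +4, and the mean difference was -0.07 ± 0.18 (adjusted p = 0.779), with a sign that turned under quantile scaling (0.04). Acacb had levels of -1.39, 0.12, -0.31 and 0.07 in sh8, against -0.15, 0.93, 0.40 and 0.51 in WT. The gap was widest on day -2 (-1.23) and narrowest on day +4 (-0.45), and the values of the lines overlap. The limma difference was -0.80 ± 0.15 with a 95% interval from -1.19 to -0.41 (adjusted p = 0.0258), and -0.93 relative to the median of all features. Leaving out either array of day 0, +2 or +4 gave differences of -0.80, -0.83 and -0.92, about as large as with all arrays or larger. Fewer residual degrees of freedom were left, and the adjusted p values were 0.0905, 0.0800 and 0.0728. Leaving out either array of day -2 leaves daily differences of -0.80, -0.71 and -0.45, so the size of the mean leans on day -2. Days -2 and 0 alone gave -1.02 with an adjusted p of 0.121, and days +2 and +4 alone gave -0.58 with an adjusted p of 0.0732.

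Fasn, the synthase itself, was close in the 2 lines. Its levels were -2.44, -3.32, -2.46 and -2.85 in sh8 and -2.60, -3.12, -3.08 and -2.77 in WT. The lines changed order more than once, with the widest gap on day +2 (0.61), and the mean difference was 0.12 ± 0.16 with a 95% interval from -0.30 to 0.54 (adjusted p = 0.592). Quantile scaling turned its sign to -0.06. Malic enzyme Me1, a source of NADPH for Fasn, was the flattest of the 10 by the brightest probe of each gene. Its levels were 3.69, 3.58, 3.43 and 3.65 in sh8, against 3.36, 3.35, 3.16 and 3.32 in WT. By that probe all 4 sh8 values lay above all 4 WT values, as in 17.3% of all features. The difference of 0.29 ± 0.09 missed the threshold (adjusted p = 0.0628). It passed under 5 of the 17 alternatives run, with quantile scaling, for example, at 0.42 (adjusted p = 0.0344), and it was higher in sh8 in all 17.

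The regulators had their widest gaps after induction. Srebf1 had levels of -2.66, -2.82, -2.28 and -2.45 in sh8, against -2.82, -2.38, -1.53 and -1.45 in WT. The lines were near each other on day -2, and on day +4 the sh8 level was 1.99-fold lower. The mean difference was -0.51 ± 0.21 (adjusted p = 0.132), and on days +2 and +4 alone it was -0.87 (adjusted p = 0.0435). Mlxipl went the other way, with 1.42, 2.00, 2.26 and 1.89 in sh8 against 1.53, 2.03, 1.23 and 0.92 in WT. Before induction its lines differed by at most 0.11, and on days +2 and +4 sh8 was 2.05-fold and 1.96-fold higher. Over the 4 days the difference was 0.47 ± 0.25 (adjusted p = 0.216), and on days +2 and +4 alone 1.00 (adjusted p = 0.0364). In that fit to days +2 and +4, which has 1 residual degree of freedom, 19.6% of all features passed, so 2 genes of 10 is the background share. It uses the arrays on which the lung markers were high, with a larger sum in sh8 on either day.

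Thrsp was the dimmest in signal. Its levels were -7.66, -6.99, -3.59 and -5.06 in sh8 and -6.70, -6.27, -5.25 and -5.26 in WT, and in both lines it was not well above background on days -2 and 0. The array of sh8 on day +2 stood apart, 3.16-fold above WT, while on day +4 the lines were within 0.20. The mean difference was 0.05 ± 0.47 with a 95% interval from -1.17 to 1.26 (adjusted p = 0.948), which holds a 2-fold change in either direction.

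**Figure D2:**
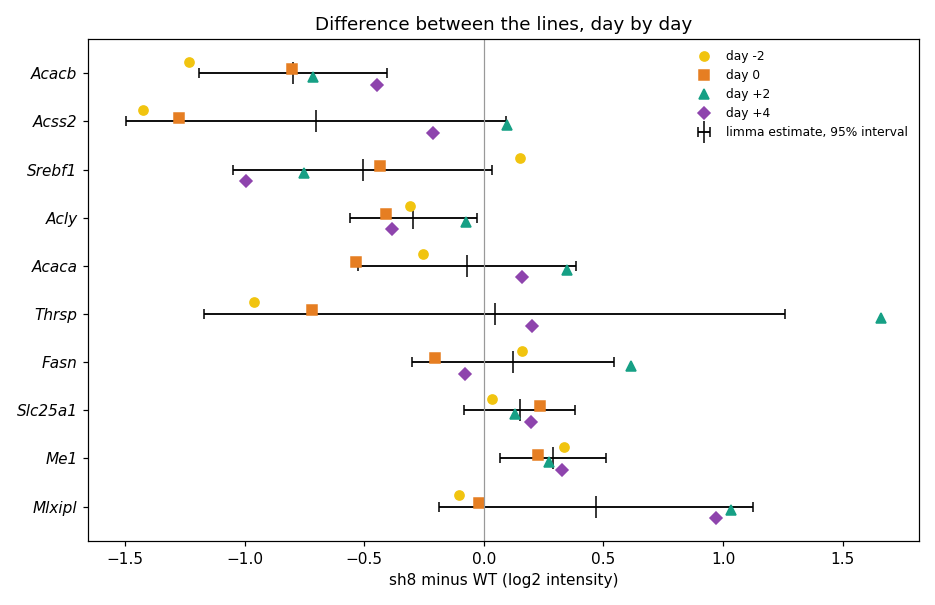
Difference sh8 minus WT (log2 intensity, horizontal axis) for each gene. Coloured symbols are the 4 single days and the black line is the limma estimate with its 95% interval over all 8 arrays. The intervals of Acacb (-1.19 to -0.41), Acly (-0.56 to -0.03) and Me1 (0.07 to 0.51) leave out 0, before adjustment over all features; Acss2, Mlxipl, Srebf1 and Thrsp have days far apart.

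On single days there is no test, so differences of at least 1 on the log2 scale were counted. They were 5 of 40: Acacb and Acss2 on day -2 (-1.23 and -1.42), Acss2 on day 0 (-1.27), and Thrsp and Mlxipl on day +2 (1.66 and 1.03). The shares of all features past the same size were 10.3%, 11.8%, 19.6% and 14.8% on days -2, 0, +2 and +4. Just under it were Srebf1 on day +4 (-0.99), Mlxipl on day +4 (0.97) and Thrsp on day -2 (-0.96, below background in both lines). On day 0 the sh8 level was the lower one for 8 of the 10 genes, with a median of -0.42 against 0.08 over all features, and on day +2 it was the higher one for 7, with a median of 0.20 against 0.15.

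Further probes for 6 of the genes gave a second reading of each difference. All 3 Me1 probes were higher in sh8 on every day, with mean differences of 0.29, 0.52 and 0.44. Only for the brightest, at 0.29, did all sh8 values lie above all WT values. The probe at 0.52 had a lowest sh8 value of -0.08 and a highest WT value of 0.36, and the probe at 0.44 had 1.87 and 1.90. Both Acly probes were lower in sh8 on every day (-0.29 and -0.39). For Acss2 the second probe gave the same split, -1.16 and -0.53 on days -2 and 0 and 0.03 and 0.10 on days +2 and +4. Its gap on day 0 was smaller than that of the first probe (-1.27). The second Acacb probe, well above background on 5 of 8 arrays, was lower in sh8 on every day but by less (mean -0.31). The probes of Mlxipl disagreed in size: on days +2 and +4 the second gave 0.23 and 0.17, where the first gave 1.03 and 0.97. Of the Acaca probes, the first and second showed the same turn from lower to higher, and the third gave -1.45 on day +4, from a single WT array at -3.26 where the other 7 arrays lay between -5.08 and -4.67.

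**Figure D3:**
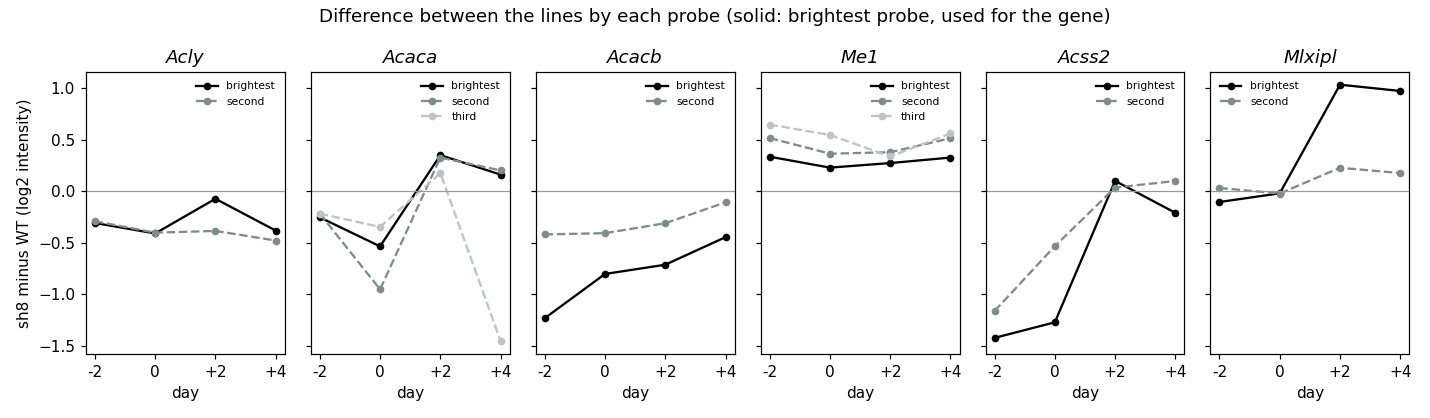
Difference sh8 minus WT (log2 intensity, vertical axis) by day for every probe of the 6 genes with several probes; the solid black line is the brightest probe, which stands for the gene. The lines of Me1 and Acly run together, and those of Acss2 share a split by period but part on day 0 (-1.27 against -0.53). Those of Mlxipl part after day 0 (1.03 against 0.23 on day +2), and the third Acaca probe drops to -1.45 on day +4.

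At confluence, with day 0 set against day -2 on the same slide, the genes did not all differ the same way. Acly was lower on day 0 in both lines, by a log2 difference of -1.05 in sh8 and -0.95 in WT. Fasn differed by -0.87 in sh8 and -0.51 in WT, Acaca by -0.83 in sh8 and -0.55 in WT, and Slc25a1 by -0.38 in sh8 and -0.58 in WT, so the chain from citrate export to the synthase had lower levels on day 0 in each line. Acacb had a difference of the opposite sign, 1.51 in sh8 and 1.08 in WT, and Mlxipl had 0.58 in sh8 and 0.50 in WT. By their brightest probes, Me1 and Acss2 differed by at most 0.12 in each line. The other Me1 probes had mean differences of -0.68 and -0.16, and the second Acss2 probe had -0.38.

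None of these steps passed the test across all features, in which 0 of 26464 (0%) passed. At an unadjusted limma p of 0.05, 5 of the 10 genes passed, against 25.4% of all features. They were Acly (-0.997 ± 0.14, adjusted p = 0.0671), Acacb (1.29 ± 0.22, adjusted p = 0.0703), Slc25a1 (-0.48 ± 0.13, adjusted p = 0.115), Fasn (-0.69 ± 0.23, adjusted p = 0.158) and Acaca (-0.69 ± 0.25, adjusted p = 0.179). With normexp background correction 3 of them passed after adjustment, Acly (adjusted p = 0.0198), Acacb (0.0219) and Slc25a1 (0.0368), among 3517 features. When features had to be well above background on all 8 arrays, Acly (0.0284) and Acacb (0.0309) passed, among 1669. The second probes of Acly (-0.97) and Acacb (1.06) gave steps of like size. The second Acaca probe gave -0.61, but the third gave only -0.11.

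**Figure D4:**
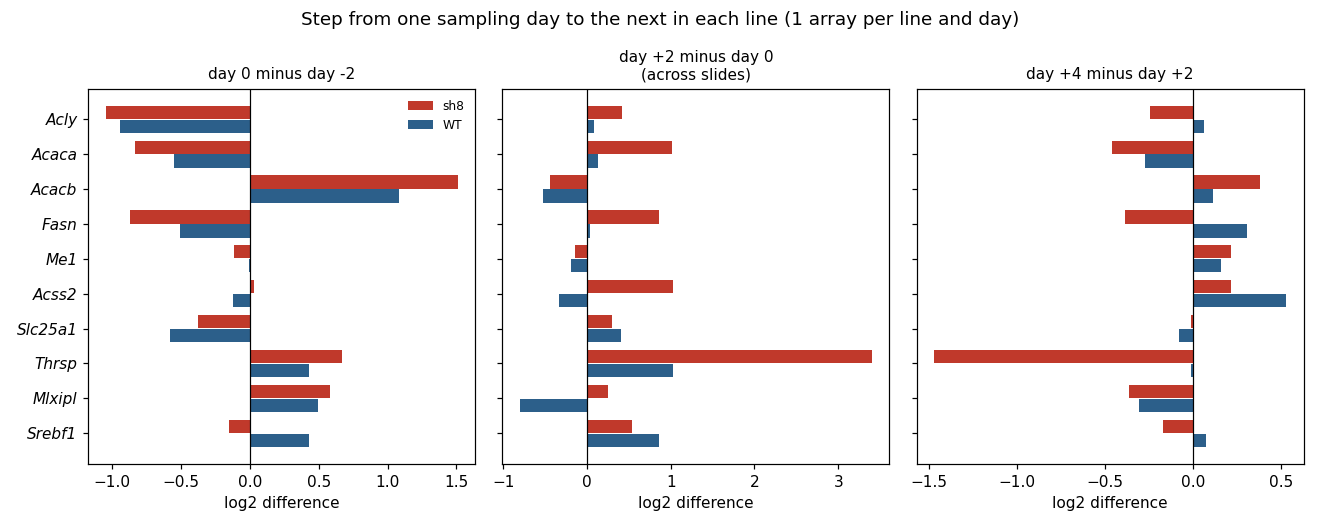
Log2 difference between successive sampling days (horizontal axis) for each gene, sh8 (red, upper bar) and WT (blue, lower bar), 1 array per line and day. On day 0 minus day -2 Acly, Acaca, Fasn and Slc25a1 are negative and Acacb and Mlxipl positive in both lines; on day +2 minus day 0, which spans the change of slide, the Thrsp bars start from day 0 arrays that were not well above background and have no exact size.

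In the first 2 days of hormones, 11.9% of features passed in day +2 against day 0 (9.01% higher, 2.89% lower), and 0 of the 10 lipogenesis genes did. At an unadjusted p of 0.05, 2 of them passed (Thrsp and Slc25a1), against 31.7% of all features. Thrsp was not well above background on day 0 in either line, so its steps have no exact size. Its level on day +2 was at least 2.19-fold higher (fitted difference 2.21, adjusted p = 0.0958). Normexp background correction lowered the fitted log2 difference to 0.62, which is below that bound. Srebf1 stood 0.70 ± 0.30 higher on day +2 (adjusted p = 0.187), with 0.54 in sh8 and 0.86 in WT. Slc25a1 was at 0.35 ± 0.13 (adjusted p = 0.139), close in both lines. Acaca and Fasn had differences of 1.01 and 0.86 in sh8, against 0.13 and 0.04 in WT.

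For day +4 against day +2 no feature passed (0 of 26464, 0%; 5.43% at an unadjusted p of 0.05), and none of the 10 genes passed the unadjusted threshold either. For day +4 against day 0, 18.8% of features passed, 14.5% as higher, and 0 of the 10 lipogenesis genes did, also at an unadjusted p of 0.05, which 38.2% of all features passed. Their median difference was 0.26 against 0.19 over all features. Srebf1 was at 0.65 ± 0.30 (adjusted p = 0.180), Acss2 at 0.72 ± 0.43 (adjusted p = 0.281), Fasn at 0.41 ± 0.23 (adjusted p = 0.256), and Thrsp was at least 1.31-fold higher (adjusted p = 0.175). The 95% interval for Fasn ran from -0.19 to 1.00, which holds a 2-fold rise at its upper end, and that for Me1 ran from -0.29 to 0.33.

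Of the 10 fat cell markers, 5 or 6 were well above background on the first slide and 9 on the second, with summed levels of 1207 to 2663% of the percentile in sh8 and 3643 to 6972% in WT. Lpl or Fabp4 was the brightest marker on every array. The list median was higher in sh8 on days -2, 0 and +2 (-5.02, -4.57 and -3.62, against -5.21, -4.97 and -4.14 in WT). It was lower in sh8 on day +4 (-3.59 against -2.32). Fabp4, the fatty acid binding protein of fat cells, rose by 2.12 ± 0.19 in day +4 against day 0 (adjusted p = 0.00780), with 3.70 in sh8 and 5.18 in WT on day +4, against 1.39 in sh8 and 3.25 in WT on day 0. The fat cell transcription factor Cebpa rose by 0.96 (adjusted p = 0.0429), and Adipoq rose at least 4.91-fold (adjusted p = 0.0420), with WT on day +4 (-1.50) far above the other arrays. With quantile scaling the adjusted p became 0.0667 for Cebpa and 0.0780 for Adipoq. With normexp background correction Adipoq had a log2 difference of 1.49 (adjusted p = 0.0753), which is below its bound. Pparg, the master regulator of fat cell formation, stood at 0.85 (adjusted p = 0.0677). Between the lines, Pparg fell by 1.59 ± 0.17 in sh8 (adjusted p = 0.0117) and Fabp4 by 1.53 ± 0.13 (adjusted p = 0.0101), while Adipoq was at -1.23 (adjusted p = 0.180) and Cebpa at 0.37 (adjusted p = 0.131). Pparg was lower in sh8 before the hormone mix too, at -0.58 and -0.84 on days -2 and 0, against 0.57 and 0.57 in WT. Fabp4 was also lower in sh8 on both of these days. On days +2 and +4, fewer fat cells and less RNA per fat cell cannot be told apart in bulk RNA.

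**Figure D5:**
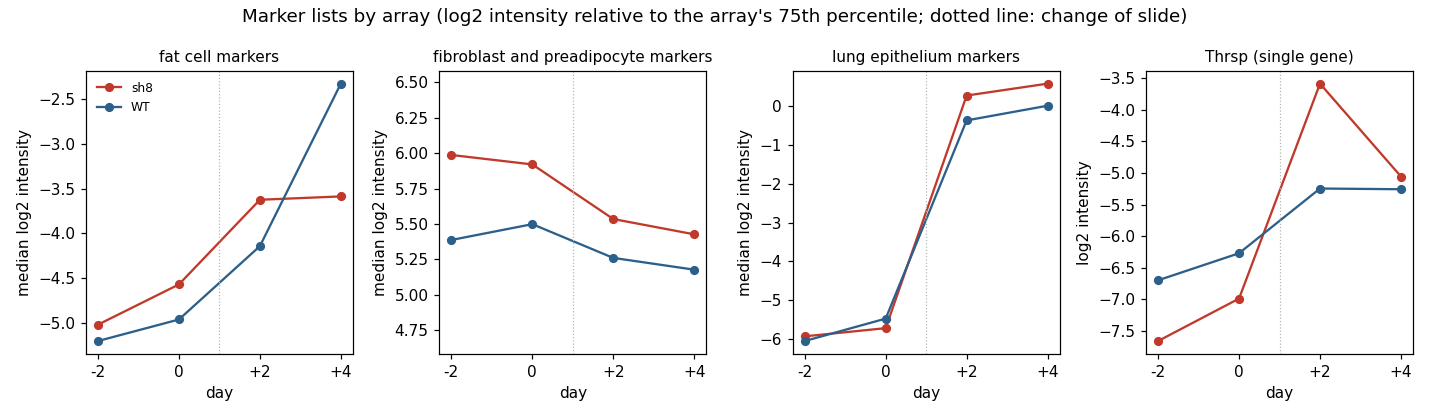
Median log2 intensity (vertical axis, relative to the array's 75th percentile) of 3 marker lists on each array, and the single gene Thrsp, in sh8 (red) and WT (blue) by day; the dotted line marks the change of slide. Fat cell markers are highest in WT on day +4 (-2.32), and the lung epithelium list steps up on the second slide in both lines, between the days on which Thrsp also becomes detectable.

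Whether the sh8 minus WT difference itself changed after induction was tested with a line by period term, which leaves 2 residual degrees of freedom. No feature passed (0 of 26464, 0%), and 19.9% passed an unadjusted p of 0.05, as did 4 of the 10 genes. The change, after minus before, was 1.29 ± 0.18 for Acss2 (adjusted p = 0.124), 1.07 ± 0.14 for Mlxipl (adjusted p = 0.121), 0.65 ± 0.18 for Acaca (adjusted p = 0.204) and 1.77 ± 0.55 for Thrsp (adjusted p = 0.224). Srebf1 had the opposite sign, at -0.73 ± 0.27 (adjusted p = 0.260). Positive terms were seen for 9 of the 10 genes, with a median of 0.36 against -0.01 over all features. Acss2 and Mlxipl both passed with normexp background correction (adjusted p = 0.0173 for each), where 1282 features passed, and with features well above background on all 8 arrays (0.0282 and 0.0276), where 1119 did. The second Mlxipl probe gave 0.20 and the second Acss2 probe 0.91.

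The profiles of the 10 genes over the 8 arrays were compared after centring each on its own mean. The root mean square distance was smallest between Fasn and Slc25a1 (0.20 log2 units), Acaca and Fasn (0.20), and Me1 and Slc25a1 (0.21), and largest between Acly and Thrsp (1.43), where Thrsp includes 4 arrays not well above background. Among 13774 named genes outside the 10 that were well above background on all arrays, those most like Fasn were H2bc1 (0.13), Gm5069 (0.13) and the stearoyl-CoA desaturase Scd2 (0.15), where the median gene lay at 0.48. Those most like Srebf1 were Olfml2b (0.08), Prrx2 (0.12) and Gramd3 (0.12), against a median of 0.59. Those most like Acly were Ino80c (0.13), Baz1a (0.14) and Rbm27 (0.15), against a median of 0.57. These are the nearest of many genes over 8 arrays with shared slides, and say nothing of shared control.

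In the list for citrate and acetyl-CoA supply, which is not limited to steps upstream of citrate, more genes passed as lower in sh8 than as higher. Of its 20 genes, 7 fell and 1 rose, with a median of -0.37. The mitochondrial pyruvate carrier subunit Mpc2 fell by 1.35 ± 0.20 (adjusted p = 0.0175) and the pyruvate dehydrogenase subunit Pdhb by 0.62 ± 0.09 (adjusted p = 0.0162), while Pdk1, the kinase that inhibits pyruvate dehydrogenase, rose by 0.60 ± 0.11 (adjusted p = 0.0237). Mpc2 stood at 1.65, 1.64, 2.08 and 2.09 in sh8, against 2.47, 2.75, 3.73 and 3.93 in WT, with no overlap. In day +4 against day 0, 5 of the 20 rose and none fell. Pyruvate carboxylase Pcx, which feeds citrate formation, rose by 2.21 ± 0.14 (adjusted p = 0.00534). The mitochondrial acetyl-CoA synthetase Acss1 rose at least 3.30-fold (adjusted p = 0.00181), in a step between the slides that was alike in both lines, -3.69 in sh8 and -3.96 in WT on day +4, against -7.55 in sh8 and -7.91 in WT on day 0. Normexp background correction gave Acss1 a smaller log2 difference of 1.13 (adjusted p = 0.00513), which is below that bound. The dicarboxylate carrier Slc25a10 also passed (adjusted p = 0.0419), with 1 of its 4 arrays on these days well above background, so no fold is given.

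Of 11 NADPH genes, 1 rose and 2 fell in sh8 (median -0.29). The pentose phosphate enzymes Rpia and Rpe fell by 1.13 ± 0.09 and 0.46 ± 0.10 (adjusted p = 0.00932 and 0.0313), and Pgd, which makes NADPH in the same route, rose by 0.55 ± 0.09 (adjusted p = 0.0199). In day +4 against day 0, 3 rose, among them Rpe (0.89, adjusted p = 0.0194) and Pgd (0.56, adjusted p = 0.0424), and the mitochondrial malic enzyme Me3 fell by 1.33 (adjusted p = 0.0287). Of 20 genes that process SREBP or act with it, 2 rose and 3 fell in sh8 (median -0.11). The proteins of Insig1 and Insig2 both hold SREBP in the endoplasmic reticulum, and they went opposite ways: Insig2 rose by 1.17 ± 0.13 and Insig1 fell by 1.28 ± 0.14 (adjusted p = 0.0124 each). Insig2 stood at 3.21, 4.27, 4.40 and 4.63 in sh8, against 2.42, 2.93, 3.14 and 3.33 in WT. Nfya, a subunit of the factor that binds CCAAT boxes, fell by 0.43 ± 0.09 (adjusted p = 0.0319). In day +4 against day 0, 1 of the 20 rose, the retinoid X receptor Rxra (0.66, adjusted p = 0.0387), and 1 fell, the oxysterol receptor Nr1h3 (-0.63, adjusted p = 0.0490).

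Of 17 genes that switch acetyl-CoA carboxylase or lipogenesis on and off, 2 rose and 1 fell in sh8 (median -0.01). Prkaa2, a catalytic subunit of the AMP-activated kinase that inactivates both carboxylases, rose by 1.08 ± 0.11 (adjusted p = 0.0115). Its mean levels were low, at -3.61 in sh8 and -4.69 in WT, and normexp background correction gave 0.53. The other catalytic subunit, at 1.94 in sh8 and 1.73 in WT, did not pass (0.22, adjusted p = 0.122). Stk11, which activates that kinase, rose by 0.56 ± 0.09 (adjusted p = 0.0194). Mlycd, which degrades malonyl-CoA, fell by 0.48 ± 0.10 (adjusted p = 0.0293). In day +4 against day 0 the insulin receptor substrate Irs1 fell by 1.40 (adjusted p = 0.00763) and the insulin-responsive glucose transporter Slc2a4 rose at least 1.17-fold (adjusted p = 0.0209). Of 16 tested genes for chain modification and activation, 2 rose and 5 fell in sh8 (median -0.10). Acsl1, an acyl-CoA synthetase, fell by 0.92 ± 0.09 (adjusted p = 0.0105) and the dehydratase Hacd2 by 1.23 ± 0.18 (adjusted p = 0.0175). The elongase Elovl7, not well above background in sh8, was at least 3.64-fold lower (adjusted p = 0.0127). Normexp background correction gave Elovl7 a log2 difference of -0.72 (adjusted p = 0.00925), smaller than that bound. In day +4 against day 0, 4 of the 16 rose, with the desaturase Scd1 at 1.72 ± 0.31 (adjusted p = 0.0260), Elovl5 at 0.88 (adjusted p = 0.0218) and Acsl1 at 0.76 (adjusted p = 0.0214).

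Mitochondria run a separate fatty acid synthesis, which makes the precursor of lipoic acid. Of its 7 tested genes, 5 fell in sh8 and none rose (median -0.50), among them Acsf3, which makes mitochondrial malonyl-CoA (-0.85 ± 0.12, adjusted p = 0.0159), the ketoacyl reductase subunit Cbr4 (-0.68 ± 0.10, adjusted p = 0.0168) and the acyl carrier protein Ndufab1 (-0.89 ± 0.18, adjusted p = 0.0280). In day +4 against day 0 none of the 7 passed, with the malonyl transferase Mcat at 0.32 (adjusted p = 0.162) and Acsf3 at -0.33 (adjusted p = 0.209). Cholesterol synthesis genes, the other SREBP targets, were lower in sh8 in 12 of 18 cases and higher in none (median -0.95), or 13 and 1 with normexp background correction. Examples were lanosterol synthase Lss (-1.42 ± 0.10, adjusted p = 0.00852), the methylsterol oxidase Msmo1 (-1.55 ± 0.19, adjusted p = 0.0138) and mevalonate kinase Mvk (-0.90 ± 0.12, adjusted p = 0.0154). None of the 18 passed in day +4 against day 0, where squalene epoxidase Sqle was at 0.68 (adjusted p = 0.165) and Mvk at 0.37 (adjusted p = 0.186). These counts stand beside 10.3% of all features lower and 16.8% higher in sh8, and beside 14.5% higher and 4.31% lower in day +4 against day 0. With quantile scaling, where 5213 features passed in sh8 against WT and 3276 in day +4 against day 0, each named gene kept its sign. Rpe and Mlycd then missed the threshold between the lines (adjusted p = 0.0671 and 0.0619), as did Slc25a10 (0.421), Pgd (0.0655), Nr1h3 (0.0642) and Slc2a4 (0.0847) in day +4 against day 0. With either day +4 array left out, 2 features passed in day +4 against day 0.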

How the data were processed

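RNA of 3T3-L1 cells was labelled with Cy3 and hybridised to 8 one-colour arrays. The series text names another maker, but per the file headers the arrays are Agilent's, read with Agilent Feature Extraction 11.0.1.1. The authors deposited a processed intensity for each spot, with median and background signals, and a log2 value table whose columns share a median of 6.38, whose scaling steps are not given in the sources used here, and which served as an alternative. Of 44397 spots, 1377 were controls. Repeat spots were averaged into 39429 probes, and 46 were left out for outlier flags. RefSeq accessions, without versions, gave 27207 of the 39383 remaining probes a symbol from a GRCm38.p6 table, and 12176 none. The headers name build mm9, so coordinates are given for RefSeq promoters only.

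Values are log2 intensity minus that of the array's 75th percentile. Probes well above background on at least 2 of 8 arrays were kept, and the brightest probe by mean stands for a gene. Some genes named from the pathway lists had further kept probes, for example 1 for Insig2 and 2 for Hacd2. Their separate differences are not given, so those sizes rest on 1 probe each. A group with no array well above background has only a bound, written "at least N-fold". It holds for the 75th percentile scaling only, and the normexp difference was below it for some genes. The dim group then counts, on each array, at its own value or at the dimmest probe well above background, whichever is higher. In R 4.3.3, with version 1.17.8 of the data.table package, the functions lmFit and eBayes of limma 3.58.1 were applied to all features with day (4 levels) and line, leaving 3 residual degrees of freedom, and once with a line by period term, leaving 2. The Benjamini-Hochberg adjustment ran over all features. On simulated data, with 100 of 26464 features changed by each fold, the fit recovered 43% of 2-fold and 91% of 4-fold changes for sh8 against WT. It recovered 1% and 62% for day +4 against day 0, and 0% of either for the line by period term, so an absence of calls there carries little information. Far fewer features were changed than passed in the data for sh8 against WT and for day +4 against day 0, so the recovered shares need not hold for those fits. Normexp correction used median rather than mean spot signals, since the files used hold medians, with an offset of 50.

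The members, the pathway and marker lists and the tests were chosen with earlier results of these data known. The text names all members, up to 3 genes past the threshold with the lowest p per pathway list in sh8 against WT and in day +4 against day 0 (up to 2 where none passed), 4 fat cell genes, and the 3 genes nearest in profile to Fasn, Srebf1 and Acly. Alternatives were quantile scaling, normexp, the authors' table, no filter, a filter on all 8 arrays, the mean of a gene's probes, each array left out, slide in place of day, and each slide alone.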

Additional observations from a re-analysis of the deposited data

Results flagged for a closer look

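For 3 genes of the 10 the sh8 minus WT difference had one sign on both days before induction and the opposite sign on both days after it. The share of all features with this pattern was not counted, so the 3 genes cannot be set against a background. For Acaca the mean difference changed by 0.65, with sh8 lower on days -2 and 0 and higher on days +2 and +4. The second Acaca probe changed by 0.85 and the third by -0.36. Mlxipl changed by 1.07, also from lower to higher in sh8. Its differences before induction were within 0.11 of 0, however, and its second probe changed by 0.20. Thrsp changed by 1.77, with both lines below background before induction. The pattern of signs held under all 3 other scalings for Acaca alone. With quantile scaling Mlxipl was at -0.072 on day -2 and 0.066 on day 0, and Thrsp at 1.40 on day +2 and -0.16 on day +4, and the authors' table gave the same signs. With normexp background correction Thrsp was at 0.044 on day -2 and -0.067 on day 0. The line by period term of limma did not pass for any of the 3 (adjusted p = 0.204 for Acaca, 0.121 for Mlxipl and 0.224 for Thrsp), and the periods lie on different slides, so period and slide cannot be told apart.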

How the results depend on the processing

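The count of lipogenesis genes called in sh8 against WT was 1, and it was 2 with quantile scaling, 2 with the authors' value table, 2 with the filter on all 8 arrays and 2 with the mean of a gene's probes (Acacb and Me1 each time), 3 with normexp (Acly as well), 0 with slide in place of day, 0 on the first slide alone and 2 on the second (Mlxipl and Srebf1). With each array left out it ranged from 0 to 1. Acacb was lower in sh8 under all 17 alternatives, from -1.02 to -0.56, and passed under 8 of them. In day 0 against day -2 the count was 0, and 3 with normexp and 2 with the filter on all 8 arrays. For the line by period term it was 0, and 2 with normexp and 2 with that filter. Fewer features enter that filter (19780); for the other settings the cause was not tested. Over the 10 genes, all comparisons and all alternatives, 799 values kept direction and side of the threshold, and 59 changed sign, 0 of them past the threshold. Of all features, 7157 passed in sh8 against WT, 62.0% of them higher in sh8, against 50.7% with quantile scaling; leaving out an array gave 0 to 4208, since the other array of that day then carries no information, the first slide alone gave 0, and the second alone 5185 (19.6% of features). In day +2 against day 0, 3150 passed (75.7% higher), against 1950 with quantile scaling (62.1%), 1963 with the authors' table and 0 to 2518 with an array left out; in day +4 against day 0, 4967 (77.0%), against 3276 (60.5%), 3296 and 2 to 4123. The authors' table gave 10 features for day 0 against day -2, and it and quantile scaling gave 1 each for day +4 against day +2. The fit with day already sets sh8 against WT within each day; beyond that, no paired analysis was possible because each line has 1 array per day. Precision is limited by 8 arrays, and for Thrsp by signal near background.

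Those 59 are values near 0 or with wide intervals. For sh8 against WT, quantile scaling gave 0.037 for Acaca, -0.061 for Fasn and -0.070 for Thrsp, and the authors' table gave 0.037, -0.061 and -0.068 for the same genes. The first slide alone gave -0.023 for Fasn, -0.84 for Thrsp and -0.063 for Mlxipl, and the second slide alone 0.25 for Acaca. For day +4 against day 0, Me1 was -0.054 with quantile scaling, -0.054 with the authors' table and -0.17 with the mean of probes. For day +4 against day +2, normexp gave 0.0091 for Fasn and 0.012 for Srebf1, and the mean of probes 0.19 for Acaca. For the line by period term, normexp gave -0.037 for Slc25a1 and the mean of probes -0.041 for Me1. With each array left out in turn, sh8 against WT ranged from -0.21 to 0.085 for Acaca, -0.041 to 0.23 for Fasn and -0.49 to 0.38 for Thrsp. Day 0 against day -2 ranged from -0.53 to 0.43 for Acss2, -0.12 to 1.22 for Thrsp and -0.30 to 0.58 for Srebf1. Day +2 against day 0 ranged from -0.19 to 0.88 for Acss2 and -0.65 to 0.10 for Mlxipl. Day +4 against day +2 ranged from -0.24 to 0.056 for Acly, -0.37 to 0.29 for Fasn, -0.16 to 0.91 for Acss2, -1.82 to 0.34 for Thrsp, -0.71 to 0.041 for Mlxipl and -0.37 to 0.28 for Srebf1. Day +4 against day 0 ranged from -0.10 to 0.52 for Acaca, -0.47 to 0.00045 for Acacb and -0.022 to 0.061 for Me1. The line by period term ranged from -0.023 to 0.29 for Acly, -0.056 to 0.64 for Fasn, -0.035 to 0.071 for Me1 and -0.073 to 0.13 for Slc25a1.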
